A study of Homo sapiens with 12 samples.

Results

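The 10 enzymes that build purine nucleotides from small precursors were followed at the RNA level in HCT116, an established human colon carcinoma cell line, with and without a CRISPR-Cas9 knock-out of MTHFD2. They are PPAT, GART, PFAS, PAICS, ADSL and ATIC, which assemble inosine monophosphate (IMP), and ADSS2, IMPDH1, IMPDH2 and GMPS, which convert IMP to the adenine and guanine nucleotides. The list was taken by gene symbol from the known pathway, and all 10 were found among the 60648 genes of the count table and passed the filter on low counts that left 18289 genes. RNA from 12 poly-A selected libraries fell into 4 groups of 3: the knock-out (KO) and the MTHFD2 wild type (WT), harvested early and late. The early or initial harvest came directly after the knock-out was made (month 0) and the late or final one after 2 months in culture. All groups were grown in DMEM with serum, and no other agent is named in the labels. The knock-out is 1 clone, so its libraries are replicates of that clone, and the p-values below measure the spread between these libraries and not between clones.

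Purines are built on a ribose phosphate, phosphoribosyl pyrophosphate (PRPP), 1 step at a time. The ring carbons that GART and ATIC add come as formyl groups on tetrahydrofolate. MTHFD2, a mitochondrial dehydrogenase and cyclohydrolase, is part of the mitochondrial folate pathway that supplies these formyl groups by way of formate. Proliferating tumour cells draw on this route for DNA and RNA synthesis.

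Library totals ran from 38597809 to 40017561 counts. Abundances are given as CPM, counts relative to the library total after TMM scaling. MTHFD2 RNA was lower in the knock-out at both harvests, at 375 to 457 CPM in the WT initial, 319 to 379 in the WT final, 128 to 146 in the KO initial and 123 to 155 in the KO final libraries, so the knock-out kept 33.2% and 38.5% of the wild-type level. The epithelial markers EPCAM, CDH1, KRT8, KRT18 and KRT19 were present at 107 CPM or more in every library, whereas 4 of the 10 epithelial and colon markers (CDX1, VIL1, LGR5 and CDH17) stayed under 0.5 CPM. The summed level of that list was 2620 to 3230 CPM in the WT initial and 2470 to 2710 in the KO initial libraries, which overlap. At the final harvest it was 3060 to 3200 CPM in WT and 2210 to 2590 in KO, lower in the knock-out without overlap. The part of this list in the results below was not tested. Leukocyte markers summed to at most 1.71 CPM, with CD3E at 0 in every library, and endothelial markers to 1.95 to 3.46 CPM. The fibroblast list summed to 56.8 to 69.9 CPM in the WT initial, 37.5 to 48.3 in the KO initial, 60.3 to 78.8 in the WT final and 43.4 to 59.3 CPM in the KO final libraries, lower in the knock-out without overlap at both harvests. Most of it was COL1A1 at 36.2 to 77.3 CPM, while COL1A2 stayed at or under 0.0271, PDGFRA at or under 0.103, and COL3A1 and PDGFRB at or under 1.84 CPM; the part of these genes in the results below was not tested.

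GART and PPAT/PAICS each start head to head with a neighbouring gene, and the DNA between the starts is shown because the comparison below turns on whether genes that share such a stretch moved together. PPAT (ENSG00000128059.8, chr4:56393362-56435615, minus strand) and PAICS (ENSG00000128050.9, chr4:56435741-56464578, plus strand) start 126 bases apart. GART (ENSG00000159131.17, chr21:33503931-33543491, minus strand) lies beside SON (ENSG00000159140.21, chr21:33543038-33577481, plus strand), a splicing cofactor. In the gene models used for counting, 145 bases separate the start of SON from the nearest GART exon below it. The GART model reaches further through an alternative upstream exon. The lines below give the plus strand of GRCh38 from RefSeq's promoter windows, chr4:56435616-56435740 for the first and chr21:33542893-33543037 for the second, neither of which overlaps an annotated exon of its pair. Capitals mark GGGCGG, the letters of an Sp1 site, in the first and CCAAT or its complement ATTGG, the letters of an NF-Y site, in the second.
PPAT and PAICS: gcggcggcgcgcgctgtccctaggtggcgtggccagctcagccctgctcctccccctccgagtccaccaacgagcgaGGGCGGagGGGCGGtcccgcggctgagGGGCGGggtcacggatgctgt
GART and SON: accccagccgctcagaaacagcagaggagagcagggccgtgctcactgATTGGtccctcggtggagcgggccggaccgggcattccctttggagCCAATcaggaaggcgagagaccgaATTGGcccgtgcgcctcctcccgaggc
The stretch between PPAT and PAICS is 125 bases long with 76.0% G and C and holds 3 GGGCGG matches. The stretch between GART and SON is 145 bases long with 66.2% G and C and holds 3 CCAAT matches, 1 on the plus and 2 on the minus strand.

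Windows of 300 bases around the starts of transcription were searched on both strands for 5 motifs in the 8 enzymes with an entry, which have 13 windows, some of them overlapping. GGGCGG was found in 10 of the 13 windows, with at least 1 in each of the 8 genes, against 45.0% of all 35116 windows of RefSeq's genes. CACGTG, the E-box letters read by MYC and MAX, was found in 3 of the 13 windows, 1 each of PPAT, PAICS and ATIC, against 7.26% of all windows. The PPAT and PAICS matches are the same site, which lies where their windows overlap, so these windows are not independent. The GGGCGG matches between the starts of PPAT and PAICS are likewise counted for both genes. The NRF1 letters, GCGCA and GCGC with any 1 base between them, were found in 1 of the 13 windows, of PAICS, against 5.78%. TGATGNAAT, the composite letters of ATF4 and C/EBP, was found in 0 of the 13 windows, against 0.991%. CCAAT was found in 3 of the 13 windows, all of GART, against 34.6%; this motif was added after the sequences had been read. ADSL and IMPDH2 have no entry among the windows. The genes outside these pairs lie on GRCh38 at chr17:8247618-8270491 (PFAS), chr22:40346461-40390463 (ADSL), chr2:215311956-215349773 (ATIC), chr1:244408494-244451909 (ADSS2), chr7:128392277-128410252 (IMPDH1), chr3:49024325-49029447 (IMPDH2) and chr3:155870650-155944020 (GMPS), and are counted over their merged exons.

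GART was the only one of the 10 enzymes called as changed with the knock-out (adjusted p under 0.05), and it fell at both harvests. The gene encodes a trifunctional protein that forms glycinamide ribonucleotide, formylates it and closes the imidazole ring, so it carries the earlier of the pathway's formyl-folate steps. GART stood at 228, 259 and 235 CPM in the WT initial libraries and at 162, 175 and 167 CPM in the KO initial libraries. At the final harvest it stood at 285, 253 and 275 CPM in WT and at 189, 167 and 184 CPM in KO. Every knock-out library was below every wild-type library at both harvests, where 35.5% and 33.1% of all genes had group ranges that did not overlap in either direction.

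GART fell to 69.9% of WT at the initial harvest (95% interval 61.9% to 78.9%, log2 fold change -0.52, SE 0.0825, adjusted p 0.000273 in edgeR's quasi-likelihood test) and to 66.5% at the final harvest (58.9% to 75.1%, adjusted p 7.74e-05). The average over harvests was 68.2% (62.6% to 74.3%, adjusted p 1.83e-06). The difference between the harvests' genotype effects was -0.072 on the log2 scale, with an adjusted p of 0.846 and an interval of -0.32 to 0.18. Within a genotype, final against initial gave 112% in WT (adjusted p 0.267) and 107% in KO (adjusted p 0.628). GART shares 0 exon bases with SON or any other annotated gene, and no pseudogene named after it is in the annotation.

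**Figure D1:**
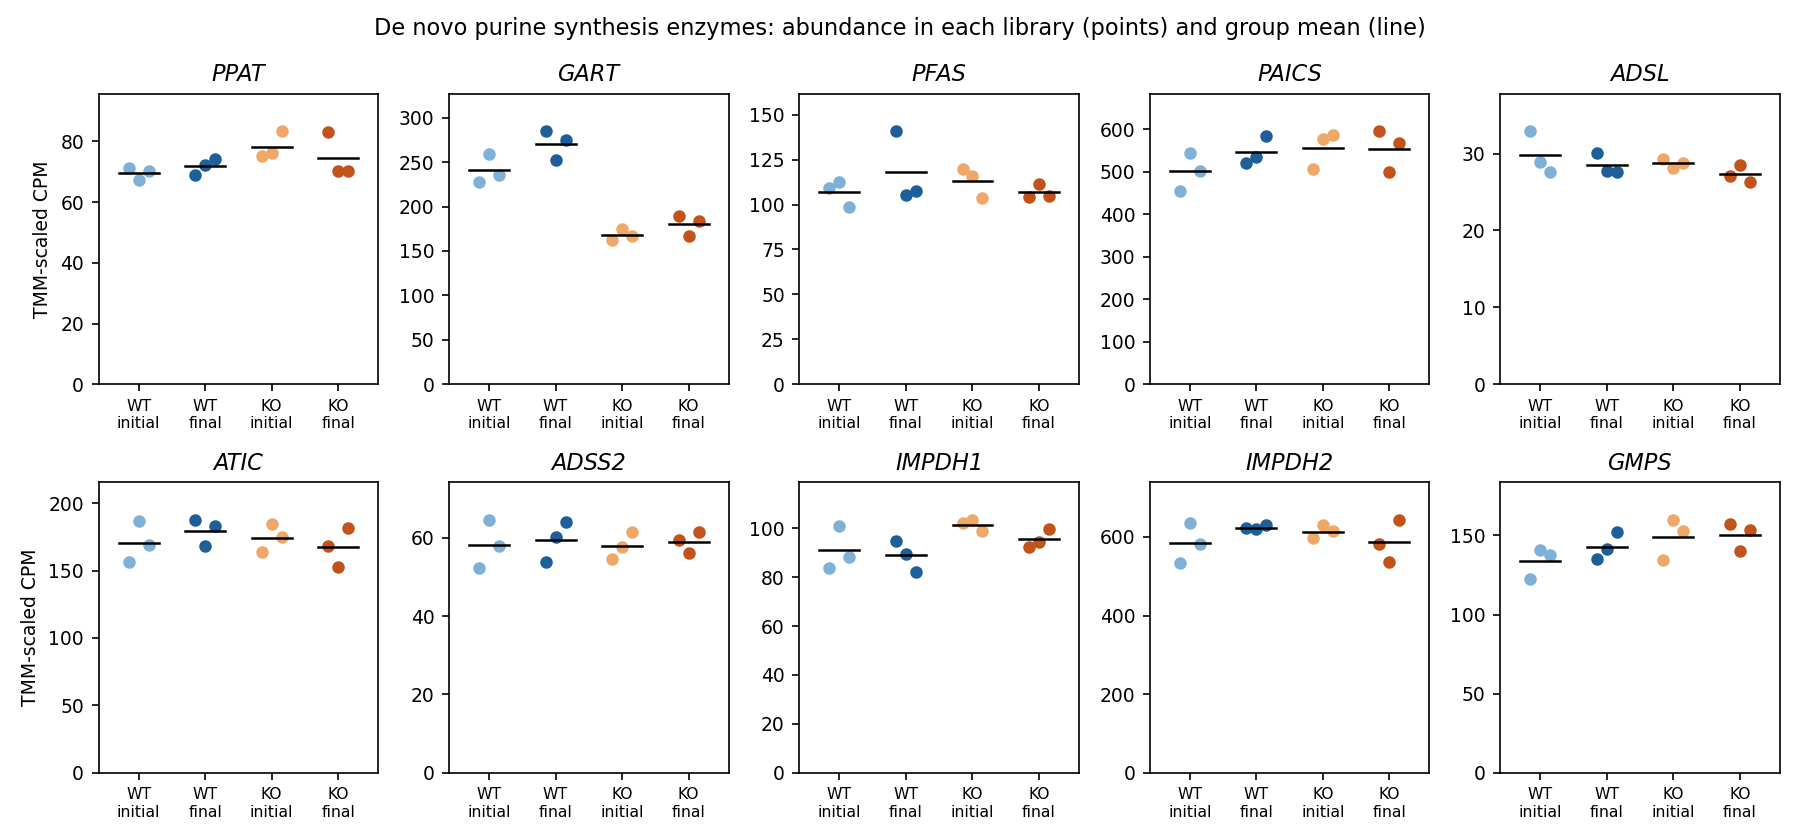
TMM-scaled CPM (vertical axes from 0, one scale per gene) of the 10 enzymes in the 4 groups; each point is 1 library and the line is the mean of 3. The GART points of KO lie at 162 to 189 CPM, all below the WT points at 228 to 285 CPM, and in the other 9 panels the groups overlap except PPAT at the initial harvest.

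Among all 18289 genes, 19.9% were called in the initial, 18.5% in the final and 30.1% in the average genotype comparison, at an adjusted p under 0.05 in either direction. Against that background, 1 of 10 enzymes was called in each, and it was lower; the share of all genes called lower was 11.3%, 10.2% and 16.1%. A count of 1 of 10 is near or under these shares and is no result about the list. The median log2 difference of the 10 was 0.078, -0.035 and -0.008 in the same order, beside 0.0, -0.0008 and 0.003 over all genes. Without GART, the 9 others lay between -0.052 and 0.17 at the initial and between -0.14 and 0.10 at the final harvest. Their 95% intervals together reached from 85.2% to 129% of WT at the initial, from 77.9% to 121% at the final harvest and from 88.0% to 119% in the average. Bulk RNA of this kind cannot tell fewer cells that express a gene from less RNA per cell.

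**Figure D2:**
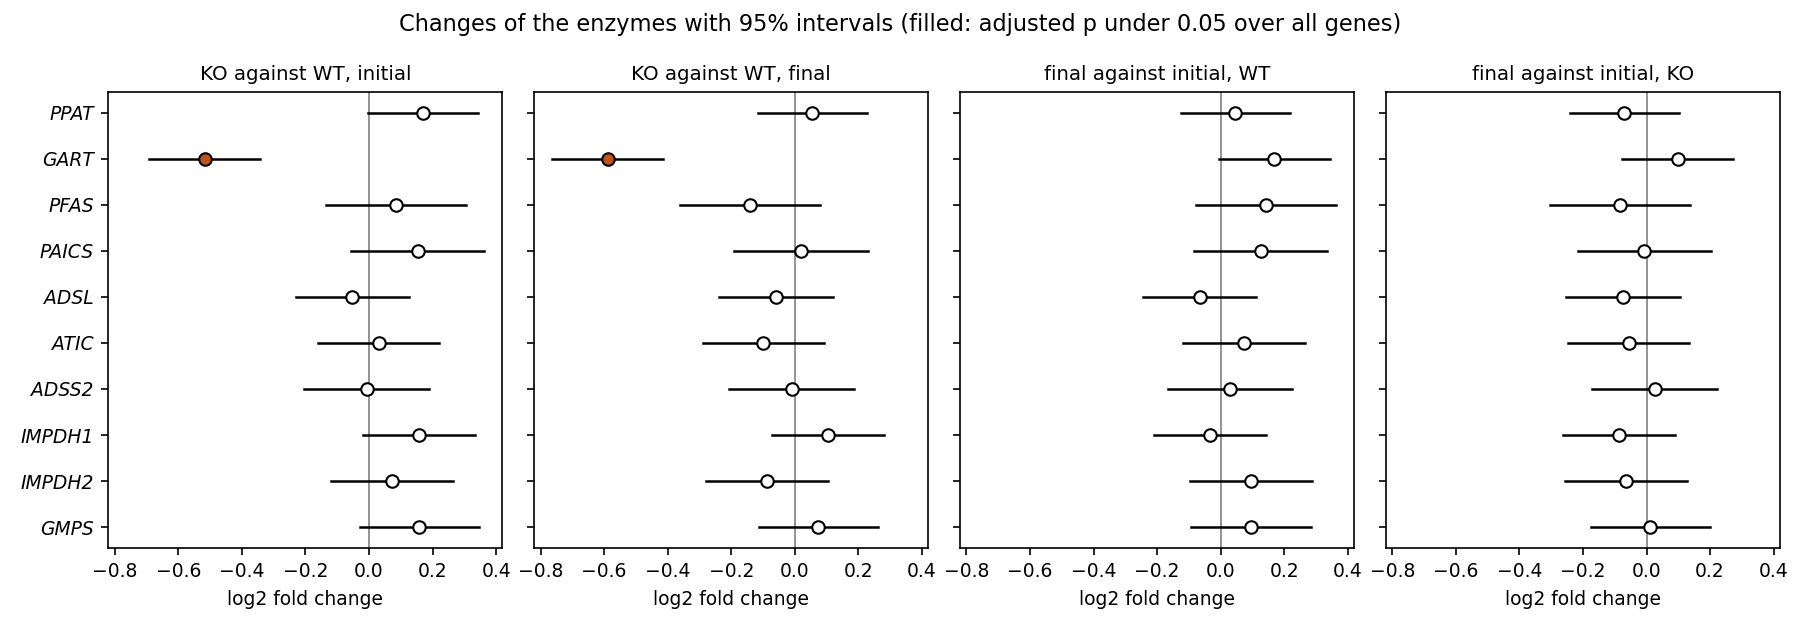
Log2 fold change (horizontal axes) of each enzyme with its 95% interval, in the 4 comparisons named above the panels; filled points have an adjusted p under 0.05 in edgeR's test over all genes. GART is the only filled point, at -0.52 and -0.59, and every other interval of the genotype panels crosses 0.

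The pathway's first enzyme, PPAT, moves an amide group from glutamine to PRPP and is the step that its end products inhibit. PPAT stood at 71.2, 67.3 and 70.1 CPM in the WT initial and at 75.3, 76.1 and 83.2 CPM in the KO initial libraries. These ranges did not overlap, which made PPAT and GART the 2 of 10 enzymes apart at that harvest, under the 35.5% of all genes. Its ratio to WT was 112% (99.9% to 127%, p 0.0522 before adjustment, adjusted p 0.162 in edgeR). At the final harvest it stood at 69.0, 72.2 and 74.0 CPM in WT and at 82.9, 70.4 and 70.3 CPM in KO, where 1 KO library was high and the groups overlapped (adjusted p 0.709). Without that library, KO_final replicate 1, the log2 difference at the final harvest was -0.034 in place of 0.055.

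PFAS, the amidotransferase that comes after the GART formylation, averaged 107 ± 7.18 CPM in the WT initial, 118 ± 19.8 in the WT final, 113 ± 8.40 in the KO initial and 107 ± 4.14 in the KO final group (SD, n = 3). Its WT final group was the most scattered of any enzyme, with libraries at 141, 106 and 107 CPM and a coefficient of variation of 16.8%. The final genotype difference was -0.14 on the log2 scale (adjusted p 0.401 in edgeR) and 0.007 without the high WT library. PAICS carboxylates the ring and adds aspartate. It averaged 501 ± 45.4 and 547 ± 33.0 CPM in WT and 557 ± 43.9 and 554 ± 49.0 CPM in KO, initial before final, and was 111% (96.2% to 129%) and 101% (87.7% to 117%) of WT. The PAICS ranges overlapped between genotypes at both harvests.

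ADSL removes fumarate both in IMP synthesis and in the step to AMP. It stood at 26.3 to 32.9 CPM over all libraries, and its level was 96.4% of WT early and 96.0% late. ATIC adds the later formyl group and closes the ring to IMP, which makes it the other formyl-folate enzyme beside GART. It stood at 157, 187 and 169 CPM in WT and 164, 184 and 175 CPM in KO at the initial harvest, and at 188, 168 and 183 against 169, 153 and 182 CPM at the final. The ATIC groups overlapped at both harvests, at 102% (89.5% to 117%, adjusted p 0.859) and 93.4% (81.8% to 107%, adjusted p 0.516) of WT in edgeR's test, and both intervals lie above the GART estimates.

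Of the enzymes beyond IMP, ADSS2 couples it to aspartate on the way to AMP and stood at 52.2 to 64.6 CPM, with 99.5% and 99.3% of WT at the harvests. IMPDH1 and IMPDH2 oxidise IMP on the way to GMP. IMPDH1 stood at 83.9, 101 and 88.3 CPM in the WT initial and 102, 103 and 98.96 CPM in the KO initial libraries, then at 94.98, 89.6 and 82.0 in the WT final and 92.4, 94.5 and 99.7 CPM in the KO final libraries. The groups overlapped at each harvest through 1 high WT library. The average difference of IMPDH1 was 0.13 on the log2 scale (SE 0.0588), with a p of 0.0411 before and 0.108 after edgeR's adjustment. It passed the threshold when WT_initial replicate 2 was left out, at 0.168 with an adjusted p of 0.0238 in edgeR, and at 0.153 with an adjusted p of 0.047 when counts were scaled by library totals alone, a scaling that moved the median of all genes in that comparison by 0.0211.

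IMPDH2 stood at 534 to 643 CPM over all libraries, and was 105% (92.0% to 120%) and 94.1% (82.4% to 107%) of WT. GMPS, which aminates XMP to GMP, averaged 134 ± 9.84 and 143 ± 8.81 CPM in WT and 149 ± 13.1 and 150.2 ± 9.10 CPM in KO, initial before final. Its groups overlapped at both harvests, with adjusted p-values of 0.237 and 0.637 in edgeR's test.

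No enzyme was called as changed with time in culture, which with 3 libraries per group does not show that none changed. Of all genes, 6.47% were called between harvests in WT and 1.48% in KO, and 0 of the 10 enzymes in either, with 0 at an unadjusted p under 0.05 in edgeR (20.0% and 14.9% of all genes) and 0 with group ranges apart (22.2% and 23.2%). The largest estimates were GART in WT, at 112% (99.7% to 127%), and GART in KO, at 107% (94.8% to 121%). The 9 others had intervals between 84.4% and 128% of the initial level in WT and between 81.0% and 117% in KO. In the interaction, which sets the genotype difference at the final harvest against that at the initial, 1.28% of all genes and 0 of 10 enzymes were called, with 0 enzymes at an unadjusted p under 0.05 in edgeR (12.3% of all genes). All 10 interaction estimates were below 0, from -0.225 for PFAS to -0.003 for ADSS2, with a median of -0.1, where 50.7% of all genes were above 0. The genes share their libraries. With scaling by library totals alone, 6 of the 10 were below 0, with a median of -0.028 beside 0.0783 over all genes. Without WT_initial replicate 3, and likewise without WT_final replicate 1, 8 of the 10 were below 0. Relative to the median of all genes, the enzymes' median was -0.105, and it was -0.106 with scaling by library totals alone. Scaling moves the genes of a library alike, so this difference could hardly change with it and the agreement is no support. Leaving out single libraries moved the enzymes' median between -0.156 (without KO_initial replicate 1) and -0.06 (without KO_final replicate 2). A shift of the enzymes as a set was not tested.

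Per length of merged exons, the enzymes differed far more from one another than between groups. IMPDH2 led with 114 ± 9.90 CPM per kb in the WT initial group, before PAICS with 66.7 ± 6.04, ATIC with 45.1 ± 3.99, GART with 31.1 ± 2.07 and IMPDH1 with 24.9 ± 2.41 (SD, n = 3). ADSS2, PFAS and GMPS followed at 16.9, 16.5 and 15.2 CPM per kb with ranges that overlap their neighbours, then PPAT at 12.8 and ADSL at 2.46. The ADSL value rests on a merged length of 12109 bases, of which 11.1% are shared with an overlapping gene counted at 0 to 6 reads. In the knock-out GART dropped below IMPDH1 per length, with 21.7 against 27.7 CPM per kb at the initial and 23.2 against 26.1 at the final harvest. The per-length ranges of these genes did not overlap in any of the 4 groups. This order depends on the merged lengths, 7751 bases for GART and 3662 for IMPDH1. In CPM GART stayed above IMPDH1 in the knock-out, at 168.2 against 101.5 initially and 179.9 against 95.54 finally. IMPDH2 exceeded IMPDH1 by 4.33-fold to 5.04-fold per length in the group means. The merged length of IMPDH2, 5123 bases, is the whole span of its gene. That of IMPDH1, 3662 bases, is only part of its span, so this ratio depends on the annotated lengths.

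Ratios of genes within a library, which scaling between libraries does not touch, are given as a description, since the fall of GART fixes their direction. GART per PAICS lay between 0.468 and 0.546 in the 6 WT libraries and between 0.285 and 0.334 in the 6 KO libraries. GART per ATIC, a ratio of the formyl-folate enzymes, lay between 1.39 and 1.52 in WT and between 0.948 and 1.12 in KO. GART per SON lay between 0.46 and 0.607 in WT and between 0.301 and 0.35 in KO. SON itself was not called, at 110% (94.7% to 127%, adjusted p 0.394) and 106% (91.5% to 123%, adjusted p 0.636) of WT in edgeR's test.

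In a further pair of genes that start head to head, PAICS per PPAT lay between 6.39 and 8.11 in WT and between 6.73 and 8.08 in KO, and neither gene was called. PFAS starts 438 bases from CTC1, a telomere maintenance gene on the other strand, and PFAS per CTC1 lay between 0.766 and 0.993 in WT and between 0.907 and 1.10 in KO. CTC1 fell to 81.7% of WT at the initial harvest (adjusted p 0.0364 in edgeR) and was at 89.5% at the final (adjusted p 0.275). In the average CTC1 was called lower, at 85.5% (adjusted p 0.0156), while PFAS was not called in any of these.

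**Figure D3:**
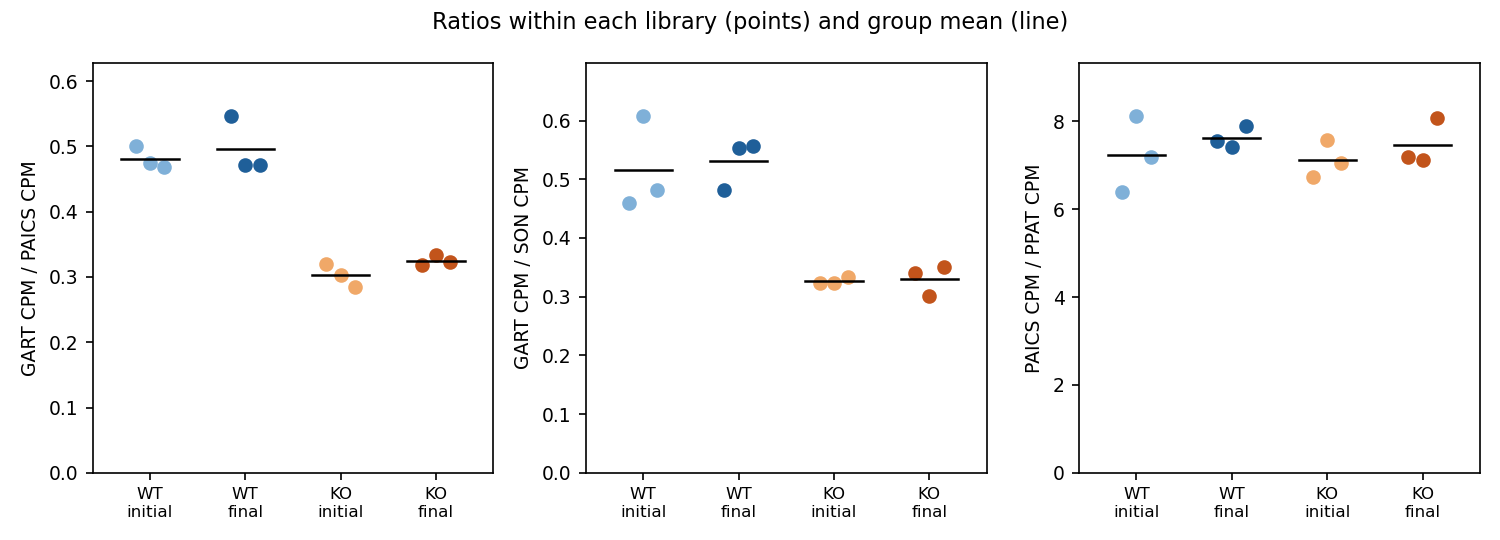
Ratios of CPM within each library (vertical axes from 0): GART to PAICS, GART to SON and PAICS to PPAT; points are libraries and lines are group means. The first pair of panels shows KO at 0.35 or less and WT at 0.46 or more, and the third shows all groups between 6.39 and 8.11.

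The other expressed genes beside GART were examined for a shared fall, after the GART value had been seen. Of the 3 on each side, IFNAR1, IFNGR2, TMEM50B, SON, DONSON and CRYZL1, none was called lower at either harvest. TMEM50B, the gene next to GART on its lower-coordinate side, was called lower only in the average, at 84.4% of WT (adjusted p 0.023 in edgeR). It was at 86.7% at the initial harvest (adjusted p 0.212 in edgeR) and at 82.1% at the final (70.1% to 96.1%, adjusted p 0.0797). DONSON was higher at the initial harvest, at 118% (adjusted p 0.0279), and at 103% at the final (adjusted p 0.726).

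**Figure D4:**
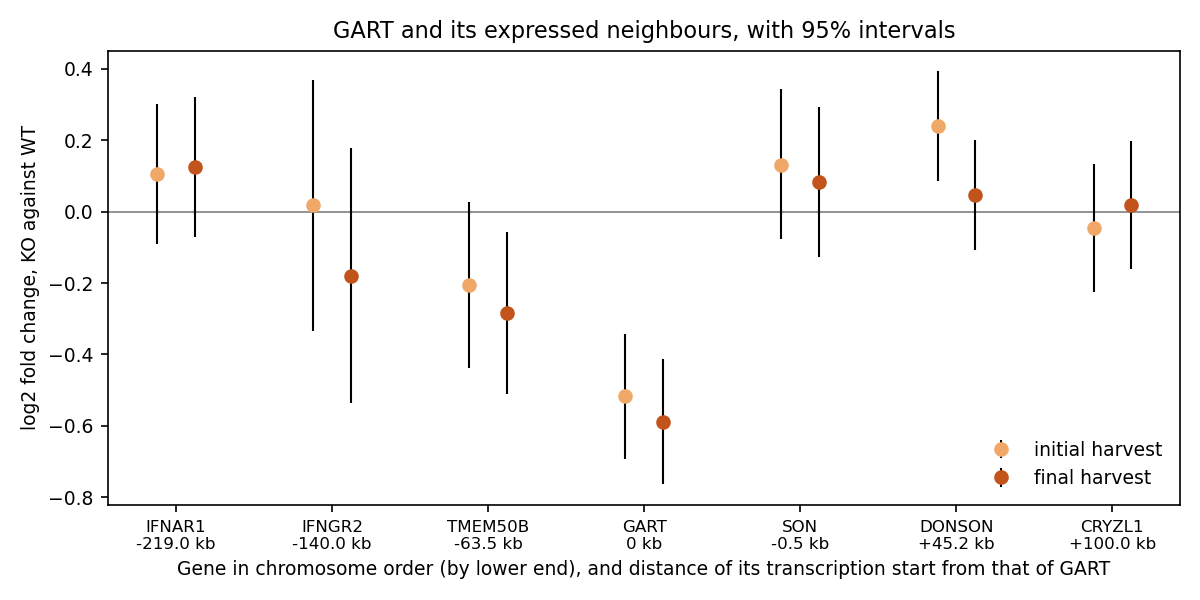
Log2 fold change of KO against WT (vertical axis) with 95% intervals for GART and the 3 expressed genes on each side, in chromosome order by lower end; light points are the initial and dark points the final harvest. The distance under each name is from the transcription start of GART, so SON, which runs the other way from a neighbouring start, is at -0.453 kb. The GART intervals lie below 0 and those of TMEM50B at the initial harvest and of SON cross it.

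The other purine genes were counted in the same way. Of 56 listed genes that supply, salvage, interconvert, degrade or transport purines and precursors, or that regulate these genes, 53 were tested. In the average genotype comparison, 8 rose and 10 fell, which is 18 of 53 where 30.1% of all genes were called. At the initial harvest 7 rose and 7 fell, and at the final harvest 3 rose and 6 fell, where 19.9% and 18.5% of all genes were called. These counts are near the shares of all genes, and what follows describes single genes.

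PRPP, the starting sugar, is made by PRPS1 and PRPS2, which were not called, while PRPSAP1, a PRPP synthetase-associated protein, was at 89.2% of WT in the average (adjusted p 0.0265 in edgeR). Of 9 genes listed under formyl-folate supply apart from MTHFD2, 3 fell in the average comparison, where 30.1% of all genes were called and 16.1% were called lower. ALDH1L2, which oxidises formyl-tetrahydrofolate in mitochondria and so uses rather than supplies it, fell to 67.3% of WT (adjusted p 0.00144). SHMT2, the mitochondrial serine hydroxymethyltransferase, fell to 82.6% (adjusted p 0.00586), and MTHFD1L to 83.7% (adjusted p 0.00297). The PRPSAP1 call was lost in 7 of 17 alternatives.

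Salvage, which reuses purine bases and nucleosides, includes ADK, the adenosine kinase, which stood at 52.1 and 61.7 CPM in WT and 35.7 and 38.7 CPM in KO, initial before final. ADK fell to 65.6% of WT (adjusted p 4.99e-05 in edgeR). APRT, which salvages adenine, rose to 137% in the average (adjusted p 0.002). It was at 113 ± 27.1 CPM in WT and 172 ± 6.25 in KO at the initial harvest (153%, adjusted p 0.00505), and at 129 ± 9.43 and 160 ± 22.6 CPM at the final (124%, adjusted p 0.149). PNP, the purine nucleoside phosphorylase, was at 115% in the average (adjusted p 0.0254), a call lost in 9 of 17 alternatives. It was at 127% at the initial harvest (adjusted p 0.0115 in edgeR) and at 104% at the final (adjusted p 0.754). HPRT1, ADA, DCK, DGUOK and MTAP were not called, so 2 of 8 salvage genes rose and 1 fell, beside 30.1% of all genes called.

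Interconversion and breakdown held the largest changes among the called genes of the lists. AK4, a mitochondrial adenylate kinase, rose from 39.2 ± 2.43 to 70.3 ± 4.91 CPM at the initial and from 39.4 ± 2.71 to 72.3 ± 5.17 CPM at the final harvest (average 181% of WT, adjusted p 1.94e-08 in edgeR). GMPR, which returns GMP to IMP, fell to 56.8% of WT (adjusted p 7.88e-07), with 24.1 and 28.3 CPM in WT and 15.9 and 13.8 CPM in KO. GMPR lies at chr6:16238587-16295549, and all 20 of the nearest expressed genes, 10 on each side and looked up after the GMPR value had been seen, were below 0 in the average comparison, with 19 called lower and a median log2 difference of -1.03; whether GMPR's fall differs from that of its neighbours was not tested. AK1 was at 116% in the average (adjusted p 0.0393), a call lost in 10 of 17 alternatives. It was at 133% at the initial harvest (adjusted p 0.0107 in edgeR) and at 101% at the final (adjusted p 0.951). Of the 14 tested interconversion genes, 3 rose and 1 fell, beside 30.1% of all genes called.

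Of the 8 breakdown genes, 2 rose and 1 fell, beside 30.1% of all genes called. NT5E, the ecto-enzyme that makes adenosine from AMP outside the cell, fell to 53.6% of WT (adjusted p 4.35e-08 in edgeR), from 105 and 145 CPM in WT to 61.9 and 70.6 CPM in KO. XDH, which oxidises purines to urate, rose to 227% (adjusted p 0.000163) from a low level of 0.308 to 0.495 CPM in the WT means. GDA, guanine deaminase, was at 114% (adjusted p 0.0286), and this call was lost in 6 of 17 alternatives. Of 6 tested transporters SLC29A1, an equilibrative nucleoside transporter, rose to 132% (adjusted p 0.000257) and SLC29A3 and SLC29A4 fell to 83.8% and 84.3% (adjusted p 0.01 and 0.00814), beside 30.1% of all genes called. ATF4, a transcription factor of amino acid stress, fell to 81.9% (adjusted p 0.00549), while MYC, MAX and NRF1 were not called. AMPD1, SLC28A1 and SLC28A3 did not pass the filter.

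**Figure D5:**
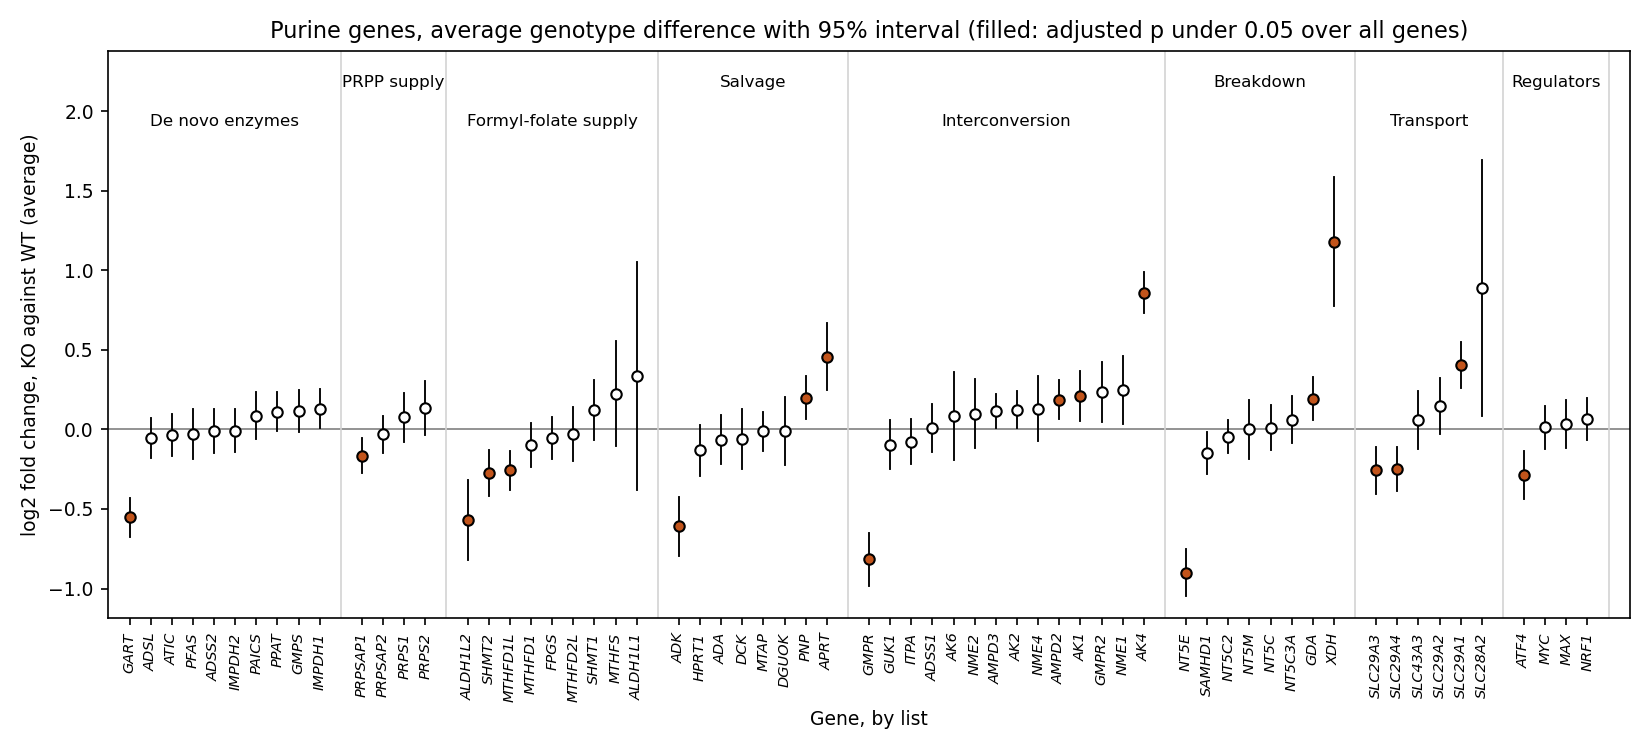
Average genotype difference (log2, vertical axis) with 95% intervals for the 10 enzymes and the 53 tested genes of the other purine lists, sorted by value in each list; filled points have an adjusted p under 0.05 in edgeR over all genes. The enzymes lie within -0.06 and 0.13 except GART at -0.55, and AK4, XDH, NT5E and GMPR lie farthest from 0 among the filled points of the other lists.

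Between harvests, 5 of the 53 genes rose and 2 fell in WT, and 2 rose in KO, where 6.47% and 1.48% of all genes were called. AMPD3, an AMP deaminase, and GDA were called higher in both. Their names were added after their values were seen, as was that of NT5C2, a cytosolic nucleotidase, which fell in the WT time comparison.

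The enzymes varied among themselves in a way that joined certain of them. Across the 12 libraries, PAICS and GMPS had a Pearson r of 0.945 and ATIC and IMPDH2 one of 0.9, on log2 CPM, and the closest partner of ADSS2 was PAICS with 0.746. PPAT was closest to PAICS, at 0.565, PFAS and ADSL to each other, at 0.449, GART to ATIC, at 0.398, and IMPDH1 to IMPDH2, at 0.392. The 45 pairs ranged from -0.78 to 0.945 with a median of 0.166. GART had an r of -0.308 with SON, the gene that starts head to head with it. The libraries share their groups and scaling, so these values describe these libraries. Outside the list, the genes most like the mean of the enzymes were CCT2 (r 0.964), CCT5 (0.962) and NUP93 (0.961) among 12503 genes. CCT2 and CCT5 are subunits of a cytosolic chaperonin and NUP93 is a nucleoporin; none of these 3 was called in any of the 6 comparisons.

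Single libraries carried part of the shared variation. WT_initial replicate 1 held the lowest value of all 12 libraries for PAICS, IMPDH2, GMPS and ADSS2, with a median log2 deviation of -0.152 over the enzymes, and within its group it was lowest for 7 of the 10. KO_initial replicate 1 was also lowest in its group for 7 and KO_final replicate 2 for 6. The median coefficient of variation of the enzymes within a group ran from 5.74% to 8.76%. Pseudogenes named after PPAT, PAICS, IMPDH1 and GMPS held at most 1.13% of the parent gene's CPM, the highest for IMPDH1 with its 10 pseudogenes.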

How the data were processed

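The authors deposited 1 table of raw counts per gene, with 1 column per library. Reads were processed with STAR and with featureCounts of the Subread package on hg38, per the submitters' processing notes; versions, annotation release, strandedness and the handling of multi-mapping reads are not given in the sources used here. The deposited gene lengths (merged exons, in bases, per the file headers) served for CPM per kb. Symbols were found for 60462 of 60648 genes, and 5 lines that broke 1 gene apart were left out.

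The counts were analysed in R 4.3.3: filterByExpr removed low genes, TMM gave the scaling, and edgeR 4.0.16 with limma 3.58.1 estimated 4 group means with robust quasi-likelihood dispersions. Calls used Benjamini-Hochberg adjusted p under 0.05 over all 18289 genes. The 3 replicates per group are biological per the series' design. The methods were tested on simulated data. DESeq2 1.42.0, RLE factors, library totals, no filter, the libraries compared alone, a replicate block and leaving out each library were alternatives.

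The members, lists and comparisons were chosen with earlier results of these data known. Named genes are the 10 enzymes, MTHFD2, tested partners starting within 1000 bases on the other strand, and the 3 genes with the highest r to the enzymes' mean (mean log2 CPM of at least 1). They also include the most similar enzyme of each and, per list, at most 2 rising and 2 falling genes of largest average change among those called; others are named after their values were seen. 1 listed gene is not reported here and is left out of the list counts. Promoter sequences are from RefSeq, GRCh38.p14, and 8 of the 10 enzymes matched.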

Additional observations from a re-analysis of the deposited data

How the results depend on the processing

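The GART call held in all 18, 18 and 17 alternatives of the initial, final and average genotype comparisons, at log2 fold changes of -0.553 to -0.465, -0.646 to -0.53 and -0.579 to -0.526. The number of enzymes called was 1 to 2 over the alternatives at the initial harvest and in the average, and 1 at the final harvest. It was 2 at the initial harvest without WT_initial replicate 2, and 2 in the average with library totals only and without WT_initial replicate 2; the added gene was IMPDH1 each time, and the cause was not tested. No enzyme was called between harvests or in the interaction under any alternative run. With a replicate block, the counts of enzymes called were 1, 1 and 1 for the genotype comparisons and 0 for the others. The deviations of same-numbered libraries from their group means, on log2 CPM, correlated at a median of 0.0588 (-0.59 to 0.534, 12513 genes). Of 18 such correlations 8 were over 0.1, so the numbers were not used as pairs.

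Without the filter, 9.68%, 9.14% and 14.8% of genes were called in the genotype comparisons and 3.45% in the WT time comparison. Leaving out KO_initial replicate 2 gave 12.9% at the initial harvest. The shares ranged from 3.32% to 8.92% for WT over time, 0.502% to 4.16% for KO over time and 0.662% to 2.58% for the interaction. For the other purine genes, a set of alternatives chosen after the data were seen gave 7 to 16 called at the initial harvest (8 without WT_initial replicate 3, 7 without KO_initial replicate 2, 9 without KO_initial replicate 3), 5 to 13 at the final (5 without KO_final replicate 1), 14 to 19 in the average, 3 to 8 for WT and 1 to 3 for KO over time and at most 1 in the interaction. Scaling by library totals shifted the median of all genes most in the WT time comparison, by -0.0883 on the log2 scale. Poly-A libraries of 1 clone limit all of this to RNA levels in that clone.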
